A study of Mus musculus with 6 samples.

Results

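The enzymes that dispose of superoxide, hydrogen peroxide and reactive electrophiles, with the genes that make and recycle glutathione and thioredoxin, were described in lung RNA of Carm1 knockout and wild-type mice. They formed a list of 40 genes put together by name and function: superoxide dismutases, catalase, glutathione peroxidases, the enzymes of glutathione synthesis and reduction, the thioredoxin system, peroxiredoxins and sulfiredoxin, heme oxygenases and Nqo1, the regulators Nfe2l2 and Keap1, and 10 glutathione transferases. Of the 18193 genes that the array could name by a probe set with 1 gene symbol, 37 were on the list. A further filter on low signal left 36 of the 40 in the comparison, among 12947 genes in all. Sod3, the extracellular superoxide dismutase, was measured by a pair of probe sets but lay below the filter, at 58.6 ± 26.9 (SD, n = 3) in wild type and 53.0 ± 33.6 (SD, n = 3) in knockout by the brighter of them. Prdx1 was represented only by 5 probe sets whose annotation names a second symbol, so it was not named, and Prdx5 and Prdx6 had no named probe set.

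Superoxide dismutases turn superoxide into hydrogen peroxide, which catalase, the glutathione peroxidases and the peroxiredoxins then reduce to water. The peroxidases draw electrons from glutathione or from thioredoxin, and NADPH-dependent reductases (Gsr, Txnrd1, Txnrd2) restore both carriers. Nfe2l2, also called Nrf2, is a transcription factor that Keap1 holds down in unstressed cells and that turns on many of these genes through a DNA sequence called the antioxidant response element. These enzymes are known for their increase in the mammalian lung toward birth, when the organ passes from a low-oxygen fluid to air.

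The study measured total RNA of whole mouse lung on 6 Affymetrix Mouse Genome 430 2.0 arrays, 3 labelled as knockouts of Carm1 and 3 as wild type. The protein, an arginine methyltransferase, is known as a coactivator of transcription. The sample labels place the knockouts at embryonic day 18.5 and call the wild types neonatal, whereas the design text gives embryonic day 18.5 for both, so that a difference in age and the genotype cannot be told apart from the sample labels alone. The knockout labels spell the gene both Carm1 and CRAM1. They do not give the strain, how the allele was made, or which fetuses and litters were sampled, so p-values measure only the spread among the 6 arrays.

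At its tested probe set Carm1 itself was at 786 ± 96.3 (SD, n = 3) in wild type and 427 ± 73.6 (SD, n = 3) in knockout, or 54.0% of the wild-type level (95% CI 41.7 to 70.0%), with no overlap between the groups and an adjusted p of 0.105 (limma, Benjamini-Hochberg). The labels do not say whether that probe set lies in the deleted part. All 10 lung identity markers were measured. Their genotypes did not overlap in 5 of them at the brightest probe set, against 23.1% of all genes. Endothelial Pecam1 and Cdh5 and alveolar Ager were lower in knockout (log2 differences -0.48, -0.36 and -0.55). Fibroblast Col1a1 and epithelial Epcam were higher (0.54 and 0.32). A second probe set overlapped for Cdh5 (-0.33), Col1a1 (0.13) and Epcam (-0.13), and did not for Ager (-0.81). None of the 5 passed the adjusted test. The arrays differed in other ways beside genotype. The summed signal of 4 heart muscle markers was 32287 in knockout replicate 2 and 3717 in wild type replicate 3, against 10119 to 14981 on the other 4 arrays. Wild type replicate 3 and knockout replicate 2 carried the transcripts of a male, and the other 4 arrays those of a female. Bacterial control RNA had a median signal of 579 and 375 on wild type replicates 1 and 3 and between 3.77 and 14.1 on the other 4 arrays. The summed signal of 6 hepatocyte markers (albumin, Afp and others) was 108646 in wild type replicate 2 and 150324 in knockout replicate 1, against 202 to 16647 on the other 4 arrays. A value among the arrays without bacterial control RNA therefore sets a single wild type, replicate 2, which is also rich in hepatocyte transcripts, against the 3 knockouts.

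The antioxidant response element has the core TGACNNNGC, and short stretches of promoter that hold it are shown because these are the members whose upstream sequence carries the letters Nfe2l2 is known to bind. The search covered both strands of RefSeq promoter windows of mouse assembly GRCm38.p6 (250 bases before a gene's start to 50 after it), which listed 34 of the 40 members. Prdx6, Gclc, Gsr, Hmox1, Gsta4 and Sod3 had no entry in that table. The 5 stretches below run 5′ to 3′ along the gene's own strand, with the core in capitals, read as GCNNNGTCA where it lies on the opposite strand.
Txnrd1: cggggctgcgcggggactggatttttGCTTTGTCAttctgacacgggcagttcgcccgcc
Gclm: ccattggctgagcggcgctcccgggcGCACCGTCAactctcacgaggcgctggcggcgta
Sod1: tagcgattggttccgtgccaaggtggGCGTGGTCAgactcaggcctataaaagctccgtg
Nfe2l2: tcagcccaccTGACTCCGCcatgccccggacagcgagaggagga
Gsta3: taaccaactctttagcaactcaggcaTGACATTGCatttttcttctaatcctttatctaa
The stretch of Txnrd1 is chr10:82859088-82859147 (plus strand), with the core 92 bases before 1 of the gene's 3 listed starts. That of Gclm is chr3:122245397-122245456 (plus strand), with the core 134 bases upstream, and that of Sod1 is chr16:90220680-90220739 (plus strand), with the core 56 bases upstream. Nfe2l2 itself holds the core 240 bases upstream at chr2:75704870-75704913 (minus strand), and Gsta3 121 bases upstream at chr1:21240438-21240497 (plus strand). In all, 9 of the 34 members (26.5%) held the core in a window, against 14% of the 27025 genes of the table and 16.8% of the tested genes that it lists. The other 4 were Srxn1, Gstm5, Prdx1 and Mgst1. Among the 7 members whose groups did not overlap (described further on), Txnrd1 alone held the core, and Hmox1 had no window to search. A match is a description of letters in a window and not a measured binding site.

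No member passed the test between genotypes, and most members differed little. Of the 36 members, 27 were higher and 9 lower in knockout, with a median log2 difference of 0.11 against 0.029 over all 12947 genes, of which 54.6% were higher. The smallest adjusted p of any member was 0.108, for Gpx3 (limma, Benjamini-Hochberg over 27022 probe sets), and 0.0296% of all tested probe sets (0.0541% of genes) passed the threshold of 0.05. At an unadjusted p under 0.05, 9 members (25%) counted, 7 higher and 2 lower, against 16.5% of all genes, 9.14% higher and 7.36% lower. In 7 members, 6 higher and 1 lower, every knockout value lay beyond every wild-type value, a share of 19.4% against 23.1% of all genes (12.6% higher and 10.5% lower). Counted over the 67 tested probe sets of the members, 13 did not overlap, 10 higher and 3 lower, against 20% of all tested probe sets (10.7% higher and 9.36% lower). This share is near the background and is no result about the list. The 95% confidence interval of 22 members stayed within 1.5-fold in both directions, and 23 differed by less than 1.2-fold.

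**Figure D1:**
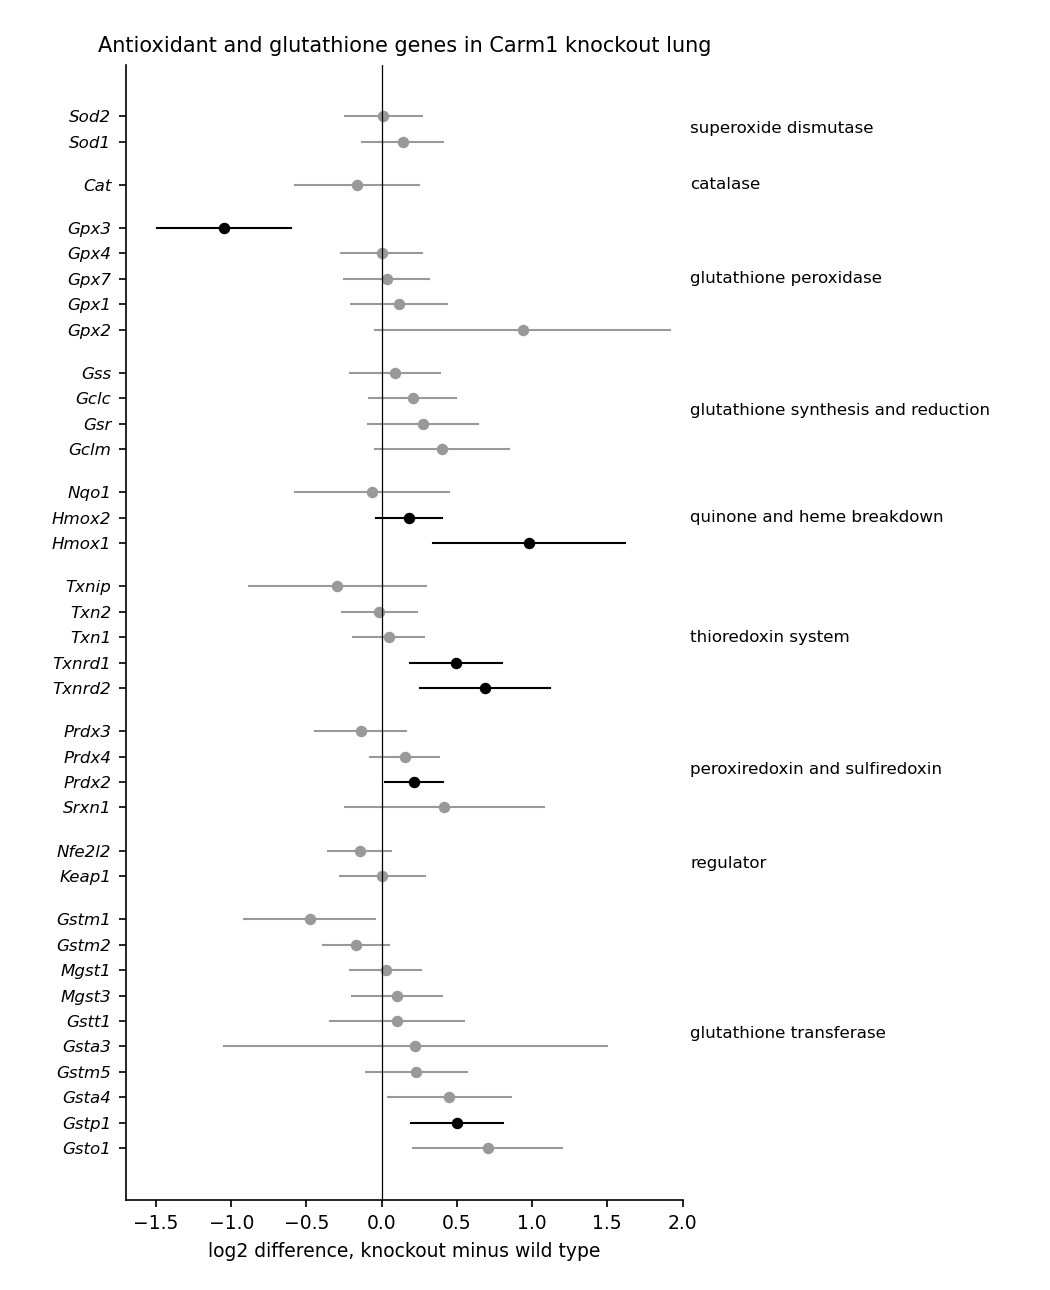
Log2 difference of knockout minus wild type (x axis) for the 36 tested members (y axis), grouped by role. Points are limma estimates at each gene's brightest tested probe set and bars are 95% confidence intervals, n = 3 arrays per genotype. Gpx3 lies lowest at -1.05 and Hmox1 highest at 0.98, while 22 of the 36 intervals stay within 1.5-fold.

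The 2 tested superoxide dismutases and catalase differed between genotypes by less than the spread between arrays at their brightest probe sets. Sod1, the cytosolic enzyme, was at 16297 ± 1812 (SD, n = 3) in wild type and 17938 ± 1923 (SD, n = 3) in knockout, a log2 difference of 0.14 with a 95% CI of -0.13 to 0.41. Sod2, the mitochondrial enzyme, was at 3247 ± 399.8 (SD, n = 3) and 3259 ± 194 (SD, n = 3), a log2 difference of 0.011 with a 95% CI of -0.25 to 0.27. Catalase, which breaks down hydrogen peroxide in peroxisomes, was at 8277 ± 699 (SD, n = 3) and 7567 ± 2084 (SD, n = 3), a log2 difference of -0.16 with a 95% CI of -0.58 to 0.25. Dimmer probe sets of Sod1 and Sod2 gave other answers. Another Sod1 probe set read 498, 429 and 439 in wild type and 623, 637 and 632 in knockout. Its groups did not overlap (log2 difference 0.47, adjusted p 0.182), whereas a second bright Sod1 probe set gave -0.018. A dimmer Sod2 probe set was lower in all 3 knockouts (log2 difference -0.34, adjusted p 0.322).

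Gpx3 had the largest difference of any member. It encodes the secreted glutathione peroxidase of plasma and airway lining fluid. Its signal was 12170.2, 10060.4 and 8768 in wild type and 4438, 6789 and 4039 in knockout. All 3 knockouts lay below all 3 wild types, with knockout replicate 2 the nearest to them. The log2 difference was -1.05 (SE 0.20), so knockout signal was 0.484 of wild type (95% CI 0.355 to 0.660). An exact permutation test (two-sided) gave 0.1, below which 3 against 3 arrays cannot go, and limma's adjusted p was 0.108. In whole-lung RNA, fewer cells of a type and less RNA per cell cannot be told apart. The difference was -0.98 without the 2 arrays rich in hepatocyte transcripts, -1.02 between the single wild type without bacterial control RNA and the 3 knockouts, and between -1.27 and -0.90 when any 1 array was left out. Gpx3 was the 1 member with an unadjusted p under 0.01 and at least a 2-fold difference.

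The other glutathione peroxidases did not follow Gpx3. Gpx1, the cytosolic form, was at 14446 ± 2224 (SD, n = 3) in wild type and 15594 ± 2089 (SD, n = 3) in knockout. Gpx4, which reduces lipid peroxides within membranes, was at 15036 ± 2285 (SD, n = 3) and 14944 ± 643 (SD, n = 3), a log2 difference of 0.00099 with a 95% CI of -0.27 to 0.27. Gpx7, a form of the endoplasmic reticulum, was at 1527 ± 179 (SD, n = 3) and 1559 ± 155 (SD, n = 3). The 95% intervals of Gpx1, Gpx4 and Gpx7 did not reach the Gpx3 difference, though the differences between these genes were not tested. Gpx2, an epithelial form, was dim at 50.2 ± 17.8 (SD, n = 3) and 97.4 ± 40.5 (SD, n = 3), and its interval of -0.042 to 1.92 on the log2 scale left its direction unsettled. Its wild-type mean lay below the filter signal of 59.7 and its knockout mean above it. Gpx2 thus entered the comparison, and the count of 27 members higher in knockout, only through the knockout arrays.

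Heme oxygenase 1, which breaks heme down into biliverdin, iron and carbon monoxide, was the member highest in knockout relative to wild type. Hmox1 read 180.2, 406 and 246 in wild type and 588, 543 and 431 in knockout. The groups did not overlap, but wild type replicate 2 came close to knockout replicate 3. Knockout signal was 1.97-fold that of wild type (95% CI 1.27 to 3.07), a log2 difference of 0.98 with an adjusted p of 0.205 (limma). Wild type replicates 1 and 3, the 2 low arrays, are those with bacterial control RNA, and against wild type replicate 2 alone the log2 difference was 0.35. Without the 2 arrays rich in hepatocyte transcripts it was 1.20. The part of these array properties in the Hmox1 difference was not tested further.

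Hmox2, the constitutive heme oxygenase, read 3094, 2654 and 2651 in wild type and 3171, 3128 and 3221 in knockout. The groups did not overlap, but the gap was narrow and the log2 difference was 0.18 (adjusted p 0.448, limma), or 0.26 among the arrays without bacterial control RNA. Nqo1, a quinone reductase and a textbook target of Nrf2, was at 213 ± 27.0 (SD, n = 3) in wild type and 206 ± 45.1 (SD, n = 3) in knockout, a log2 difference of -0.064 with a 95% CI of -0.58 to 0.45.

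Both thioredoxin reductases were higher in knockout at their brightest probe set. These selenoenzymes keep thioredoxin reduced, Txnrd1 in the cytosol and Txnrd2 in mitochondria. Txnrd1 read 984, 1201 and 1274 in wild type and 1577, 1465 and 1827 in knockout. Its lowest knockout lay above its highest wild type, and the fold was 1.41 (95% CI 1.14 to 1.74, adjusted p 0.185, limma). Txnrd2 read 270.5, 246 and 229 in wild type and 453, 444 and 315 in knockout. The groups did not overlap, with knockout replicate 3 the lowest of its group, and the fold was 1.61 (95% CI 1.19 to 2.17, adjusted p 0.193, limma). Brightness was judged over all 6 arrays, knockouts included. In wild type alone another Txnrd2 probe set was brighter, at 282 ± 30.3 against 248 ± 21.1 (SD, n = 3). The choice of this probe set, and so the place of Txnrd2 among the members without overlap, therefore rests on the knockout values being compared.

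The remaining probe sets did not repeat these differences. Of the other Txnrd1 probe sets, 1 gave a log2 difference of 0.011 (246 ± 47.4 in wild type and 245 ± 1.99 in knockout, SD, n = 3) and another 0.24, where the brightest gave 0.50. For Txnrd2 the brightest gave 0.69 and the other 3 gave -0.18, 0.22 and -0.13. Among the arrays without bacterial control RNA the brightest probe sets gave 0.43 for Txnrd1 and 0.70 for Txnrd2. Averaged over all tested probe sets, Txnrd1 differed by 0.25 and Txnrd2 by 0.15 on the log2 scale. The files used here do not say which transcript forms these probe sets read.

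At their brightest probe sets the thioredoxins themselves differed by less than the spread between arrays. Txn1 was at 16861 ± 1399 (SD, n = 3) in wild type and 17398 ± 1378 (SD, n = 3) in knockout. Txn2, the mitochondrial form, had the narrowest range of any member at the brightest probe set, 1.12-fold from its lowest to its highest array, at 823 ± 28.2 (SD, n = 3) and 816 ± 50.7 (SD, n = 3). Dimmer probe sets again differed from these. A second Txn1 probe set read 148, 140.4 and 128 in wild type and 125, 86.0 and 109 in knockout, without overlap (log2 difference -0.39, adjusted p 0.542), and the other Txn2 probe sets gave 0.23 and 0.30. Txnip, which binds and inhibits thioredoxin, was at 10134 ± 4325 (SD, n = 3) and 7831 ± 1040.3 (SD, n = 3). The wide spread of Txnip came from wild type replicate 1 at 14914, and without it the log2 difference was 0.027 in place of -0.29.

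Peroxiredoxins reduce peroxides through a reactive cysteine, and sulfiredoxin repairs them after over-oxidation. Prdx2, the cytosolic form abundant in red blood cells, read 10929.5, 11650.4 and 10956.5 in wild type and 12561, 12798 and 13545 in knockout. The arrays of each genotype lay close together and did not overlap, and the fold was 1.16 (95% CI 1.01 to 1.33, adjusted p 0.328, limma). The log2 difference was 0.21 over all arrays and 0.15 among those without bacterial control RNA. Prdx3, the mitochondrial form, was at 3467 ± 530.0 (SD, n = 3) and 3133 ± 341 (SD, n = 3). Prdx4, the form of the secretory pathway, was at 4205 ± 196 (SD, n = 3) and 4685 ± 449.7 (SD, n = 3), and its second probe set was higher in all 3 knockouts (log2 difference 0.33, adjusted p 0.277). Srxn1, the sulfiredoxin, was dim at 101 ± 31.0 (SD, n = 3) and 130.4 ± 7.05 (SD, n = 3).

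The second Prdx2 probe set followed neither the genotype nor the first probe set. It read 892, 861 and 65.97 in wild type and 1877, 100.04 and 1176 in knockout. The low arrays, wild type replicate 3 and knockout replicate 2, were the 2 male ones. The lowest female value was 8.61 times the highest male value, which ranked 4 among the 27022 tested probe sets for that ratio. The 3 ranked above it all read Xist, the RNA that silences an X chromosome in females. Those ranked 5 to 12 read Prg2, Apom, Rian, Fabp1, Ttr, Serpina1b and Apoa1, of which Ttr and Apoa1 are hepatocyte markers used here. The 2 male arrays also had the lowest summed hepatocyte signal, 202 and 3634, against 4332.5 to 150324 on the female arrays. The part of sex and of hepatocyte transcripts in this probe set's signal was not tested. Prdx2 lies on chromosome 8, and the brighter Prdx2 probe set gave a ratio of 0.854. The log2 difference between genotypes at this second probe set was 0.71, with a 95% CI of -2.06 to 3.48.

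**Figure D2:**
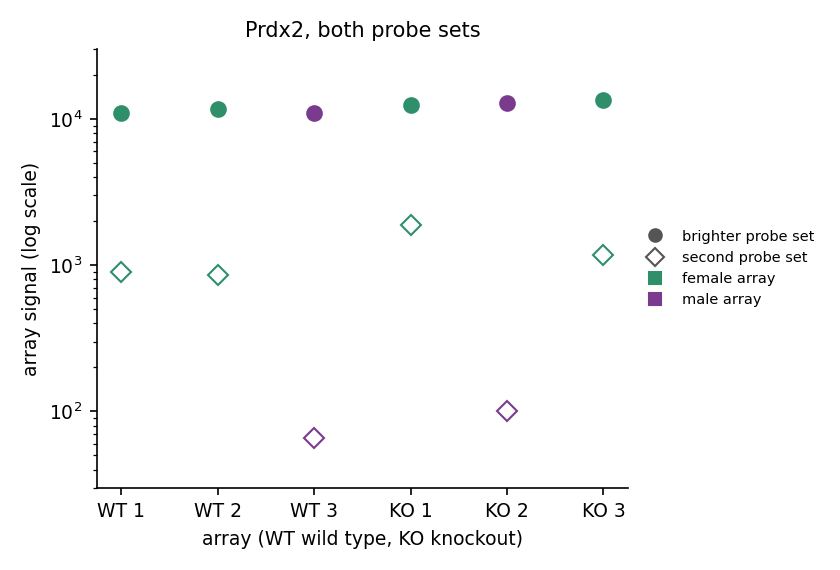
Array signal of the 2 Prdx2 probe sets (y axis) on each of the 6 arrays (x axis), with female and male arrays marked. At the second probe set the 2 male arrays sit at 65.97 and 100.04 and the 4 female arrays between 861 and 1877, while the first probe set lies between 10929.5 and 13545 on all arrays.

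Genes of glutathione synthesis and reduction were all somewhat higher in knockout at their brightest probe sets, and none passed the test. Gclc and Gclm form glutamate-cysteine ligase, the rate-limiting enzyme of glutathione synthesis. Gclc, the catalytic subunit, was at 1029 ± 119 (SD, n = 3) in wild type and 1186 ± 117 (SD, n = 3) in knockout. Gclm, the modifier subunit, was at 1104 ± 336 (SD, n = 3) and 1421 ± 155 (SD, n = 3), a log2 difference of 0.40 with a 95% CI of -0.045 to 0.84 and an adjusted p of 0.417. Its second probe set read 436, 386 and 378 in wild type and 625, 499 and 444 in knockout. There the groups did not overlap (log2 difference 0.37). Against wild type replicate 2, the wild type without bacterial control RNA, the difference at the first Gclm probe set was -0.071. Gss, glutathione synthetase, was at 540.0 ± 6.36 (SD, n = 3) and 576 ± 60.1 (SD, n = 3), and Gsr, glutathione reductase, was at 858 ± 67.0 (SD, n = 3) and 1052 ± 219 (SD, n = 3). The log2 differences of Gsr, Gclc and Gss were 0.27, 0.21 and 0.088 at these probe sets. Their second probe sets gave 0.0084, 0.11 and 0.073. In wild type alone the second Gclc probe set was the brighter, at 1093 ± 481 against 1029 ± 119 (SD, n = 3). The choice of the Gclc probe set therefore rests on the knockout values being compared.

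Glutathione transferases join glutathione to electrophiles, and 8 of the 10 on the list were higher in knockout. Gstp1, the pi-class enzyme, read 5954, 7271 and 5898 in wild type and 9753, 7525 and 9831 in knockout. All knockouts lay above all wild types, with knockout replicate 2 just above wild type replicate 2. The fold was 1.41 (95% CI 1.14 to 1.75, adjusted p 0.183, limma), and the log2 difference was 0.50 over all arrays and 0.30 among those without bacterial control RNA. Gstp1 has a near-identical neighbour, Gstp2, so its probe set may read both.

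Gsto1, an omega-class enzyme with thiol transferase activity, was at 1670.3 ± 286 (SD, n = 3) in wild type and 2789 ± 875 (SD, n = 3) in knockout, 1.63-fold (95% CI 1.16 to 2.30, adjusted p 0.233, limma). Its groups overlapped at that probe set, where wild type replicate 2 read 1999 and knockout replicate 1 read 1965. At its second probe set they did not, with 1626, 1765 and 1304 in wild type and 1920.0, 2473 and 3265 in knockout (log2 difference 0.68, adjusted p 0.201). Among the arrays without bacterial control RNA the first probe set gave 0.43. Without the 2 arrays rich in hepatocyte transcripts the log2 difference was 1.07 (adjusted p 0.0545, limma), and between those 2 arrays alone it was -0.025. The first of these comparisons sets 2 arrays against 2 and was chosen after seeing the data. More of all probe sets passed in it than over all arrays, so its adjusted p lends Gsto1 no added weight.

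Gsta4, which conjugates the lipid peroxidation product 4-hydroxynonenal, was at 3010.1 ± 782 (SD, n = 3) in wild type and 4047 ± 541 (SD, n = 3) in knockout, a log2 difference of 0.45 (adjusted p 0.328, limma). Its groups overlapped, and the difference was 0.054 among the arrays without bacterial control RNA. Gstm1, a mu-class enzyme, was at 2869.8 ± 627 (SD, n = 3) and 2057 ± 421 (SD, n = 3), a log2 difference of -0.48 (adjusted p 0.324, limma) and of -0.45 among the arrays without bacterial control RNA. Its 4 tested probe sets gave -0.48, -0.30, -0.35 and 0.071, the last of them the dimmest. Mu-class genes are close in sequence, and the brightest Gstm1 probe set carries the array maker's mark for probes that may read other genes. The brightest Gsto1 probe set carries the same mark, and the second Gsto1 probe set carries none. The brightest probe sets of Sod1 and Srxn1 carry a different mark of this kind.

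The remaining transferases differed less. Gstm2 was at 3327 ± 249.8 (SD, n = 3) and 2952 ± 161 (SD, n = 3), and Gstm5 at 2407 ± 195 (SD, n = 3) and 2855 ± 606 (SD, n = 3). The membrane-bound Mgst1 was at 21558 ± 2384 (SD, n = 3) and 21901 ± 675 (SD, n = 3), a log2 difference of 0.028 with a 95% CI of -0.21 to 0.26. Mgst3 was at 2968 ± 309 (SD, n = 3) and 3198 ± 494 (SD, n = 3).

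**Figure D3:**
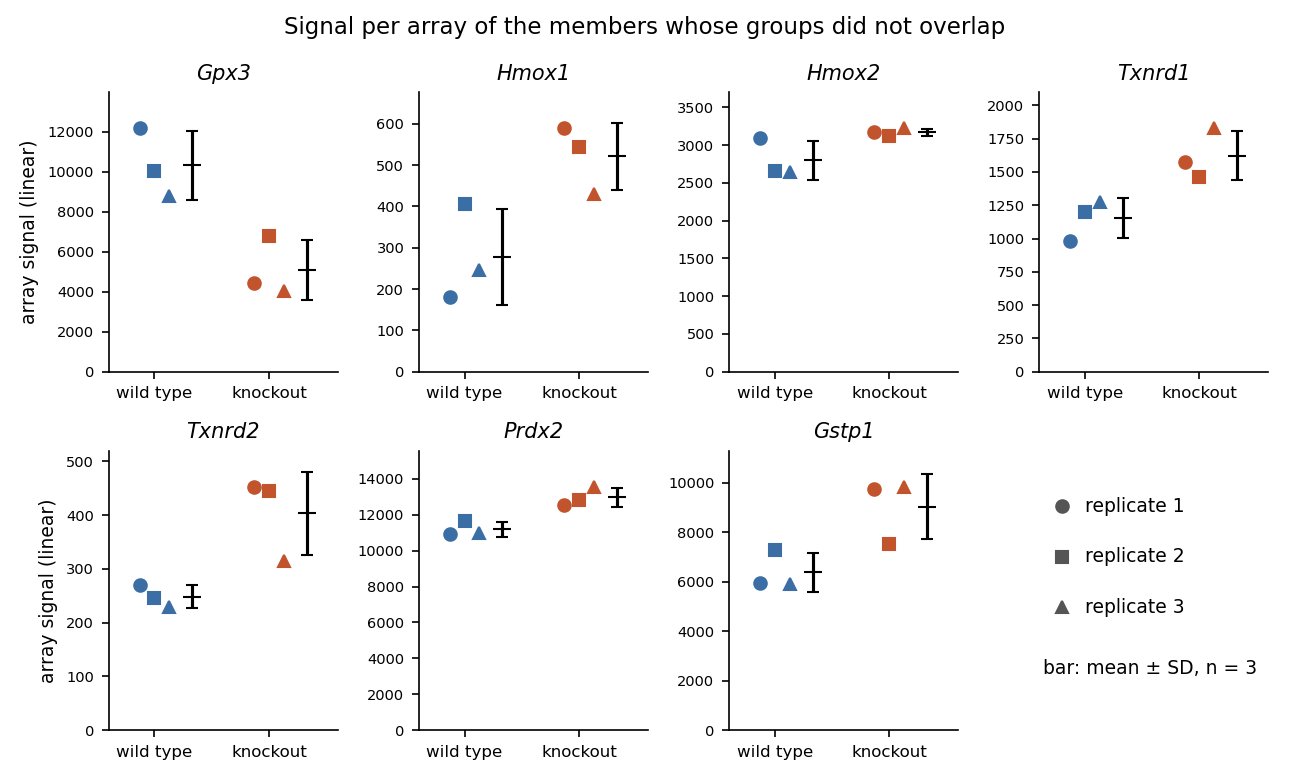
Array signal on a linear scale (y axis, starting at 0) of the 7 members whose genotypes did not overlap, at the brightest tested probe set. Each point is 1 array and the bar gives the mean ± SD (n = 3). Gpx3 is lower in all knockouts, while Hmox1, Hmox2, Txnrd1, Txnrd2, Prdx2 and Gstp1 are higher, and the gap is narrow for Hmox1, Hmox2 and Gstp1.

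Neither regulator showed a difference that passed the test. Nfe2l2 was at 6362 ± 379.7 (SD, n = 3) in wild type and 5751 ± 324 (SD, n = 3) in knockout, a log2 difference of -0.15 with a 95% CI of -0.35 to 0.064. Keap1 was at 805 ± 37.5 (SD, n = 3) and 809.8 ± 93.7 (SD, n = 3), a log2 difference of 0.0028 with a 95% CI of -0.28 to 0.29. RNA levels say nothing of the Nfe2l2 protein, which Keap1 is known to control by degradation.

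Gsta3, an alpha-class transferase that the liver makes in quantity, varied most from array to array when each member was read at its brightest probe set. It read 342, 689 and 255 in wild type and 1195, 274 and 293 in knockout. Its highest arrays were wild type replicate 2 and knockout replicate 1, the 2 rich in hepatocyte transcripts, and the range was 4.68-fold against a median of 1.51-fold over the members. Cat, Gpx1, Gclm and Gstt1 had the same 2 highest arrays, so 5 of the 36 members (13.9%) did, against 5.63% of all genes tested. For Gclm this held at the brightest probe set only. Its second probe set was highest on knockout replicates 1 and 2 (625 and 499), with wild type replicate 2 at 386. Gstt1, a theta-class enzyme, was at 1522 ± 296 (SD, n = 3) in wild type and 1651 ± 426 (SD, n = 3) in knockout. The between-genotype difference of Gsta3 was 0.22 over all arrays and -0.061 without the 2 rich in hepatocyte transcripts. The part of the hepatocyte transcripts in the levels of these 5 members was not tested.

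**Figure D4:**
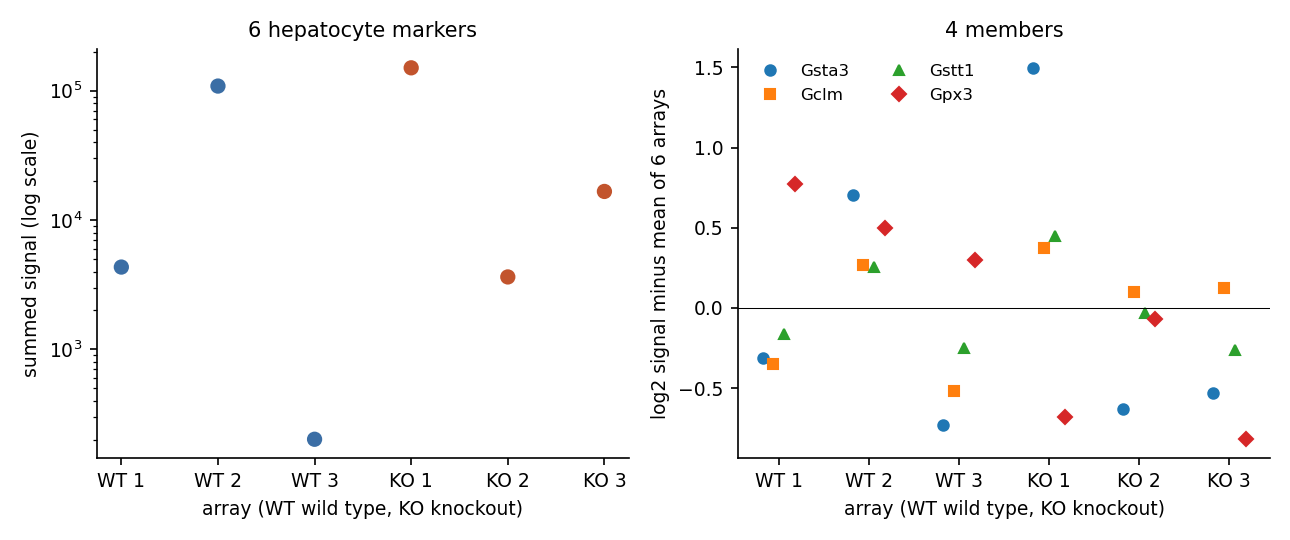
Left, summed signal of 6 hepatocyte markers (log axis) on each of the 6 arrays; right, log2 signal of 4 members minus their mean over the 6 arrays. Wild type replicate 2 (108646) and knockout replicate 1 (150324) stand above the other arrays. At their brightest probe sets Gsta3, Gclm and Gstt1 are highest on the same 2, whereas Gpx3 follows genotype. The second Gclm probe set, which had other highest arrays, is not shown.

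Among the cell type marker lists, the summed signal separated the genotypes for alveolar type I cells and overlapped for the others, and no marker passed the adjusted test. All 8 alveolar type I cell markers were lower in knockout, 6 of them without overlap against 23.1% of all genes, and their summed signal ranged from 104369 to 141177 in wild type and from 70825 to 90159 in knockout. Alveolar type II markers summed to 103744 to 136184 in wild type and 102586 to 118797 in knockout. Macrophage markers were split, 4 higher and 4 lower, with sums of 30841 to 43647 and 21035 to 33002. Of the red cell markers, relevant to Prdx2, 5 of 10 were measured and 4 of those were higher in knockout, with none free of overlap and sums of 8898 to 19520 and 10682 to 17779. Alas2, the 1 lower in knockout (log2 difference -0.36), was the brightest of the 5 on every array, at 7666 to 13566. It therefore weighed most in these sums. The median log2 difference over the 5 was 0.99, and none had an unadjusted p under 0.05 (limma). Club cell markers summed to 99391 to 150291 and 114223 to 155044, smooth muscle markers to 10369 to 12158 and 11310 to 14274, and heart muscle markers to 3717 to 13043 and 10644 to 32287. All 4 tested heart muscle markers were higher in knockout, with none free of overlap and a median log2 difference of 0.89. The part of these markers in the members' differences was not tested.

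The wider glutathione and Nrf2 pathway did not move as a group. Of 77 further genes, 64 were tested, and 28 were higher and 36 lower in knockout, with a median log2 difference of -0.032. None passed the adjusted threshold. At an unadjusted p under 0.05 (limma) 10 of the 64 counted, 5 in each direction, against 16.5% of all genes. In 13 (20.3%) the groups did not overlap, against the background of 23.1%. Both shares are near the background and are no result about these genes. The smallest p belonged to Bach1, a repressor that competes with Nrf2 at the antioxidant response element of Hmox1 and other genes. Bach1 was at 3547 ± 189.8 (SD, n = 3) in wild type and 2639 ± 313 (SD, n = 3) in knockout, a log2 difference of -0.43 (adjusted p 0.173, limma). Maff, a small Maf protein that pairs with both Nrf2 and Bach1, was at 955 ± 22.0 (SD, n = 3) and 737 ± 89.8 (SD, n = 3).

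Among the enzymes and transporters of that list, Abcc1, which exports glutathione conjugates, was at 238 ± 32.6 (SD, n = 3) in wild type and 361 ± 21.3 (SD, n = 3) in knockout. Akr1b8, an aldo-keto reductase, was at 279 ± 55.7 (SD, n = 3) and 415 ± 12.8 (SD, n = 3). Anpep, an aminopeptidase that cleaves the cysteinylglycine left from glutathione, was at 108 ± 25.5 (SD, n = 3) and 184 ± 26.4 (SD, n = 3). Oplah, the 5-oxoprolinase of the gamma-glutamyl cycle, was at 606 ± 61.6 (SD, n = 3) and 437 ± 48.3 (SD, n = 3). At the brightest probe set the groups did not overlap in any of these 6 genes. They were picked for the smallest p at that probe set, so the lack of overlap adds no support. A second probe set overlapped for Bach1 (log2 difference -0.18) and for Abcc1 (0.34).

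By role, the 10 Nrf2 partner genes had 7 lower and 3 higher in knockout, and their median log2 difference was -0.20. The 10 measured other Nrf2 targets were 7 higher and 3 lower with a median of 0.089, and the 12 other glutathione transferases 7 higher and 5 lower with a median of 0.12. The 7 higher transferases include Gstm6, which entered only through the knockout arrays. The 7 NADPH-supplying genes were 3 higher and 4 lower. The 4 methionine sulfoxide reductases and the 5 measured NADPH oxidase genes were all lower, by medians of -0.12 and -0.12, with no gene at an unadjusted p under 0.05 in either group.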

How the data were processed

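Total RNA of mouse lung was hybridised to 6 arrays, 3 per genotype, with 1 array per labelled sample. The authors deposited linear intensity values. Per the submitters' processing notes these came from MAS5, and no version is given in the sources used here. The mean with 2% trimmed from either end was 500 on every array, so no further normalization was applied.

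Of 45101 probe sets, 34945 had 1 symbol, 932 several and 9160 none in the platform annotation, and 34741 were updated through the gene ID (RefSeq, GRCm38.p6). The 27022 non-control probe sets above the 40th percentile of mean log2 signal (59.7) were tested with limma 3.58.1 in R 4.3.3 (lmFit, eBayes with trend, two-sided), knockout minus wild type, with Benjamini-Hochberg adjustment and a threshold of 0.05. A gene below the filter signal in 1 genotype could pass through the other, as Gpx2 and the pathway gene Gstm6 did. Folds come from geometric means. A gene's main probe set was its tested, 1-symbol probe set of highest mean log2 signal over all 6 arrays. That choice can lean on a difference between the groups, as it did for Txnrd2 and Gclc. The fit was tested on simulated data. The number of arrays limits the precision.

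The 40 members and all lists were chosen with earlier results of these data known. By the rule for named genes, members whose groups did not overlap get a value per array, and the 6 further pathway genes of smallest p are named. Members named for a second probe set, or for a pattern across arrays, were chosen after their values were seen. Alternatives changed the normalization, filter, pseudocount, variance model, covariates, arrays and probe set. Leaving out the 2 arrays rich in hepatocyte transcripts, and fitting that level as a term, were chosen after seeing the data.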

Additional observations from a re-analysis of the deposited data

How the results depend on the processing

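No member probe set passed the adjusted threshold in any alternative. Of the 36 members, 20 kept their sign in every alternative that included them. That was 20 alternatives for each, except 19 for Gpx2 and Srxn1. The members that kept their sign include the 10 with an unadjusted p under 0.05 or no overlap. For those 10, leaving out arrays can rarely turn the sign by construction, so this says nothing of their stability. The median log2 difference over members ran from 0.036 to 0.18, and that over the other pathway genes from -0.068 to 0.036. The number of all probe sets past the threshold (8) was 0 without a variance trend, 40 with robust variance, 4 with sex as a term, 2 with bacterial control RNA as a term and 3 among the arrays without it, where the single wild type is assumed to vary like the knockouts. It ran from 0 to 13 when 1 array was left out, was 58 without the 2 arrays rich in hepatocyte transcripts, and was 4 with that level as a term. The cause was not tested. The 7 members without overlap (19.4%, against 23.1% of all genes) became 17 among the arrays without bacterial control RNA (47.2% against 57.4%), 15 without the 2 hepatocyte-rich arrays (41.7% against 44.9%) and 10 to 13 with 1 array left out (27.8 to 36.1% against 30.6 to 35.5%), since fewer arrays make overlap rarer. Same-numbered samples had deviations correlated at -0.14, -0.38 and -0.0056, so the numbers pair nothing; with the replicate block, 0 probe sets passed and the member median stayed at 0.11. Members near the filter, such as Gpx2 and Srxn1, had wide intervals.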
